A study of Saccharomyces cerevisiae with 6 samples.

Results

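The central segment of the yeast 25S rRNA gene was examined in NET-Seq data, which locate the 3′ ends of RNA bound to RNA polymerase I (Pol I). Its members were taken by place alone. The 25S gene covers 3396 of the 6858 positions of the 35S rRNA gene in the table and was cut into 3 segments of 1132 positions each, called here the 5′, the central, and the 3′ segment. The central segment runs from position 4384 to 5515, counted from the first nucleotide of the 35S transcript. These are nucleotides 1133 to 2264 of the 25S rRNA, on the minus strand of chromosome XII at chrXII:462055-463186 of the R64 genome assembly, inside the annotated rRNA genes RDN37-2 and RDN25-2. All of it lies inside the mature 25S sequence, and G and C make up 50.6% of it, against 45.0% of the 35S gene.

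The study compared 3 libraries of WT *Saccharomyces cerevisiae* with 3 libraries of an *rpa190-F1205H* strain. The mutant strain carried the altered *RPA190* gene on a plasmid, with the chromosomal copy replaced by *HIS3*, and the WT was its parent strain. In both, Pol I was precipitated through an HA tag on the Rpa135 subunit, from cultures grown at 30 °C to an OD600 of 0.3. Replicates were labelled by number only, so the p-values measure the spread between these libraries, which may be technical.

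Pol I makes a single long precursor from each rDNA repeat, from which the 18S, 5.8S, and 25S rRNAs are cut. The 25S rRNA is the main RNA of the large ribosomal subunit, and its gene is the last of the 3 that Pol I crosses. Rpa190 is the largest Pol I subunit, and the mutation changes a phenylalanine to a histidine in the trigger loop, a mobile element that closes over the active site as each nucleotide is added. A polymerase that waits at a position adds reads there, so a peak in NET-Seq is read as a place of long dwell. Fragments of mature rRNA that come through the purification give reads as well. Inside the 25S gene the reads of the 2 sources cannot be told apart.

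The positions at which the results turn are shown here in their sequence, as RNA from 5′ to 3′. They are the 5 largest rises and 5 largest falls in *rpa190-F1205H* and the 5 highest positions of each strain, 16 positions in all because some fall under more than 1 heading. Capitals mark the named 3′ ends, and the lower-case letters are the 15 nucleotides on each side and those between neighbors.
4388 (chrXII:463167-463197): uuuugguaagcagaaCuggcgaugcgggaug
4424 and 4429 (chrXII:463126-463161): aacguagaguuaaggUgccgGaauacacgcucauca
4598 (chrXII:462957-462987): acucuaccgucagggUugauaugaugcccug
5006 and 5010 (chrXII:462545-462579): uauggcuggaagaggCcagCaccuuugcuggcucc
5045 and 5046 (chrXII:462509-462540): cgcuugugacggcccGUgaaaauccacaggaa
5158 (chrXII:462397-462427): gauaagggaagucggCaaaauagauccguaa
5260 and 5278 (chrXII:462277-462325): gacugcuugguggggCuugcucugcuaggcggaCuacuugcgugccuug
5314 to 5316 and 5338 (chrXII:462217-462271): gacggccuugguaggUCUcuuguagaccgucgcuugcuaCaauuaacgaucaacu
5404 (chrXII:462151-462181): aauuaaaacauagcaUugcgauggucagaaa

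The central segment was deeply covered. As recovered from the deposited values, it held 441516 to 685129 reads per library in WT, and 626248 to 738903 per library in *rpa190-F1205H*. The lowest count at any position in any library was 13 reads, and no position was at 0. All 1132 positions were therefore tested. The median coefficient of variation between libraries was 7.89% in WT and 6.94% in *rpa190-F1205H*, and replicates of a strain differed by more than counting error, with a chi-square per degree of freedom of 2.64 to 5.85. The values are RPM, reads per 1000000, which the authors scaled to all reads between positions 1 and 6739. A level therefore depends on how many reads fall elsewhere, and the transcribed spacers, the parts of the precursor that are cut away, had a mean per position of 27.5 ± 2.1 RPM in WT and 81.2 ± 0.76 RPM in the mutant (± SD, n = 3).

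On this scale the mean level of the central segment was lower in *rpa190-F1205H*. Replicates 1 to 3 of WT had 193, 192, and 196 RPM per position, and those of *rpa190-F1205H* had 176, 175, and 177 RPM. The strains did not overlap, with means of 194 ± 1.9 and 176 ± 0.84 RPM and a two-sided exact permutation p of 0.1, the smallest that 3 libraries against 3 allow. The size of this difference, -17.6 RPM, depends on the scaling, and with equal spacer totals it was -266 RPM. The log2 ratio of the mean level in the central segment to that in the spacers, which is free of scaling, was 2.82 ± 0.11 in WT and 1.12 ± 0.01 in *rpa190-F1205H*, with no overlap (exact p = 0.1). On the RPM scale the median position went the other way. It was 131 ± 3.6 RPM in WT and 140 ± 1.8 RPM in *rpa190-F1205H*, again with no overlap (exact p = 0.1). The lower mean beside the higher median goes with a smaller share of reads at the highest positions. The share of the central segment's reads at its 11 highest positions, the top 1%, was 7.82%, 7.66%, and 9.44% in WT and 4.56%, 4.97%, and 5.10% in *rpa190-F1205H*. This share does not depend on the scaling to the rest of the gene, and the strains did not overlap (exact p = 0.1). Without the highest 1% of positions of each library, the mean on the RPM scale was still lower in *rpa190-F1205H*. The difference was then -10.2 RPM (exact p = 0.1). In WT, 202 to 223 positions held 50% of the reads, and in *rpa190-F1205H* 260 to 283 did.

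Compared with its neighbors in the 25S gene, the central segment stood above the 3′ segment by more in *rpa190-F1205H* than in WT. The log2 ratio of the mean level in the central segment to that in the 3′ segment was 0.01, 0.02, and 0.02 in WT and 0.20, 0.20, and 0.23 in *rpa190-F1205H*. The difference of 0.20 was larger than the spread between libraries (exact p = 0.1), and by medians it was 0.34 in the same direction. This was not particular to the central segment. The log2 ratio of the mean level in the 5′ segment to that in the 3′ segment went from -0.17 ± 0.02 in WT to 0.12 ± 0.02 in *rpa190-F1205H*. That difference was 0.29 (exact p = 0.1), and by medians 0.24. The mean level of the 3′ segment was 192 ± 1.9 RPM in WT and 152 ± 1.1 RPM in the mutant. Against the 5′ segment, the log2 ratio of means was 0.19 ± 0.03 in WT and 0.10 ± 0.01 in *rpa190-F1205H* (exact p = 0.1). By medians that order turned, with ratios of 0.03 ± 0.04 in WT and 0.13 ± 0.03 in the mutant. Without the highest 1% of positions of each segment in each library it did not turn. The difference by means was then -0.07 in place of -0.09 (exact p = 0.1). The comparison with the 5′ segment therefore depends on whether means or medians are taken. The central segment was the highest of the 3 by mean in all 6 libraries. By median it was the highest in the 3 mutant libraries, whereas in the 3 WT libraries the 3′ segment was higher, with 146, 143, and 140 RPM against 133, 132, and 127 RPM.

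Within the central segment, the 5′ side held a larger share of the reads in *rpa190-F1205H* than in WT. Its 4 sections of 283 positions each, numbered from the 5′ side, are given as shares of the central segment's reads, which are free of scaling. Section 1, positions 4384 to 4666, held 23.1 ± 0.48% in WT and 26.4 ± 0.33% in *rpa190-F1205H*. Section 4, positions 5233 to 5515, held 26.5 ± 0.72% and 22.9 ± 0.39%. Section 2 went from 22.8 ± 0.25% to 24.6 ± 0.20%, and section 3 from 27.6 ± 0.35% to 26.1 ± 0.37%. The strains did not overlap in any section, and each exact p was 0.1 (0.1 after Benjamini-Hochberg adjustment over the 4 sections). Without the highest 1% of positions of each library, the gain in section 1 shrank from 3.30 to 1.64 percentage points and the loss in section 4 from 3.59 to 1.59, with the same direction.

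**Figure D1:**
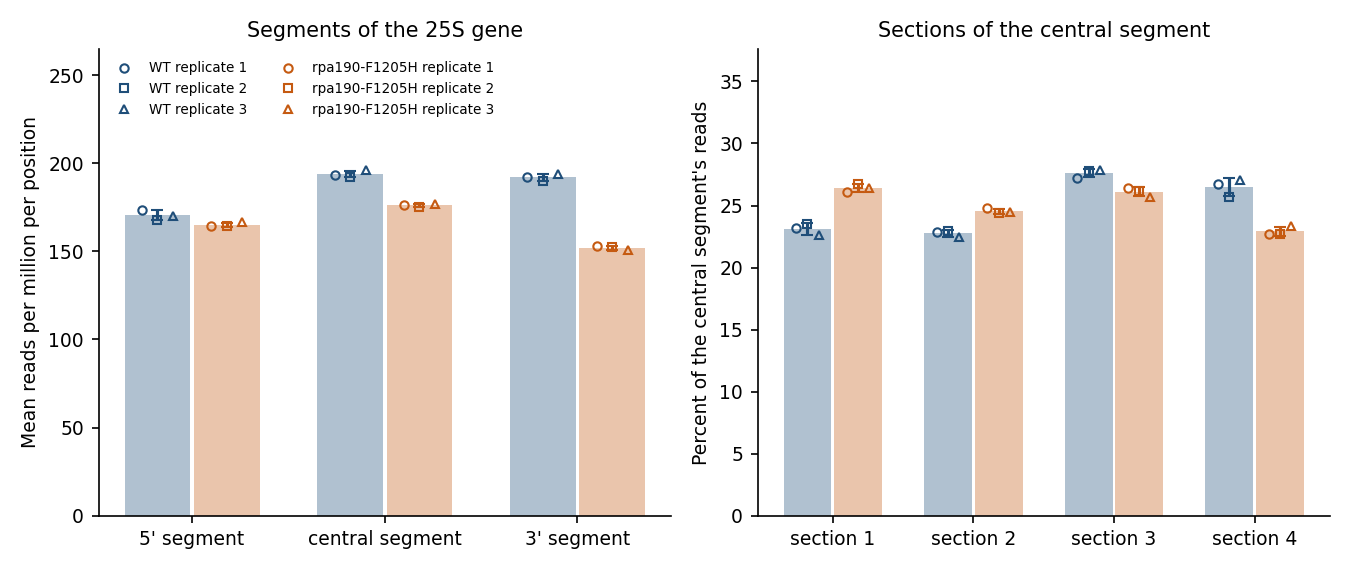
Left, mean RPM per position in each segment of the 25S gene; right, the percent of the central segment's reads in each of its sections. Points are libraries, bars are strain means, and error bars are SD (n = 3). The mutant libraries lie below the WT libraries in the central segment and hold more of their reads in its section 1 and fewer in its section 4.

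Single positions changed in both directions. limma on log2(RPM + 1), with Benjamini-Hochberg adjustment over all 6843 positions tested, called 343 positions of the central segment higher in *rpa190-F1205H* and 462 lower. Those are 30.3% and 40.8% of its positions, where the whole 35S gene had 40.6% higher and 33.9% lower. The libraries of the strains did not overlap at 374 positions higher in the mutant and 497 lower, against 41.8% and 36.2% of the positions of the gene. The shares in the central segment were close to those in the 5′ segment, where 31.8% were higher and 38.3% lower, and the 3′ segment had 18.3% and 56.1%. No test was made of these differences in share. The median log2 fold change was -0.12 in the central segment and 0.05 over all positions.

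On the RPM scale, rises were fewer than falls among all limma calls, but they reached further and were more numerous at 2-fold or more. Of the 1132 positions, 120 (10.6%) rose at least 2-fold and 26 (2.30%) at least 4-fold, against 23.5% and 9.66% of the positions of the whole gene. Falls of at least 2-fold were at 42 positions (3.71%, against 3.01% in the whole gene), and 0 positions fell 4-fold, against 0.0877% in the whole gene. The log2 fold changes ran from -1.56 to 3.53. The positions with the highest mean over the 6 libraries fell most often, and among the 227 highest 130 were lower and 53 higher, while among the 227 lowest 68 were lower and 66 higher. The direction of these counts and the reach of the changes rest on the RPM scale. With the spacer total set equal in every library, which moves the median of all positions by -1.53 on the log2 scale, 32 positions were higher and 1057 lower, where the whole gene had 11.6% higher and 78.6% lower. The log2 fold changes then ran from -3.11 to 1.98, so that falls reached further than rises. With the total of the central segment itself set equal, 410 were higher and 366 lower (45.3% and 26.7% in the whole gene), and with the median position set equal 274 were higher and 597 lower (35.4% and 43.8%).

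**Figure D2:**
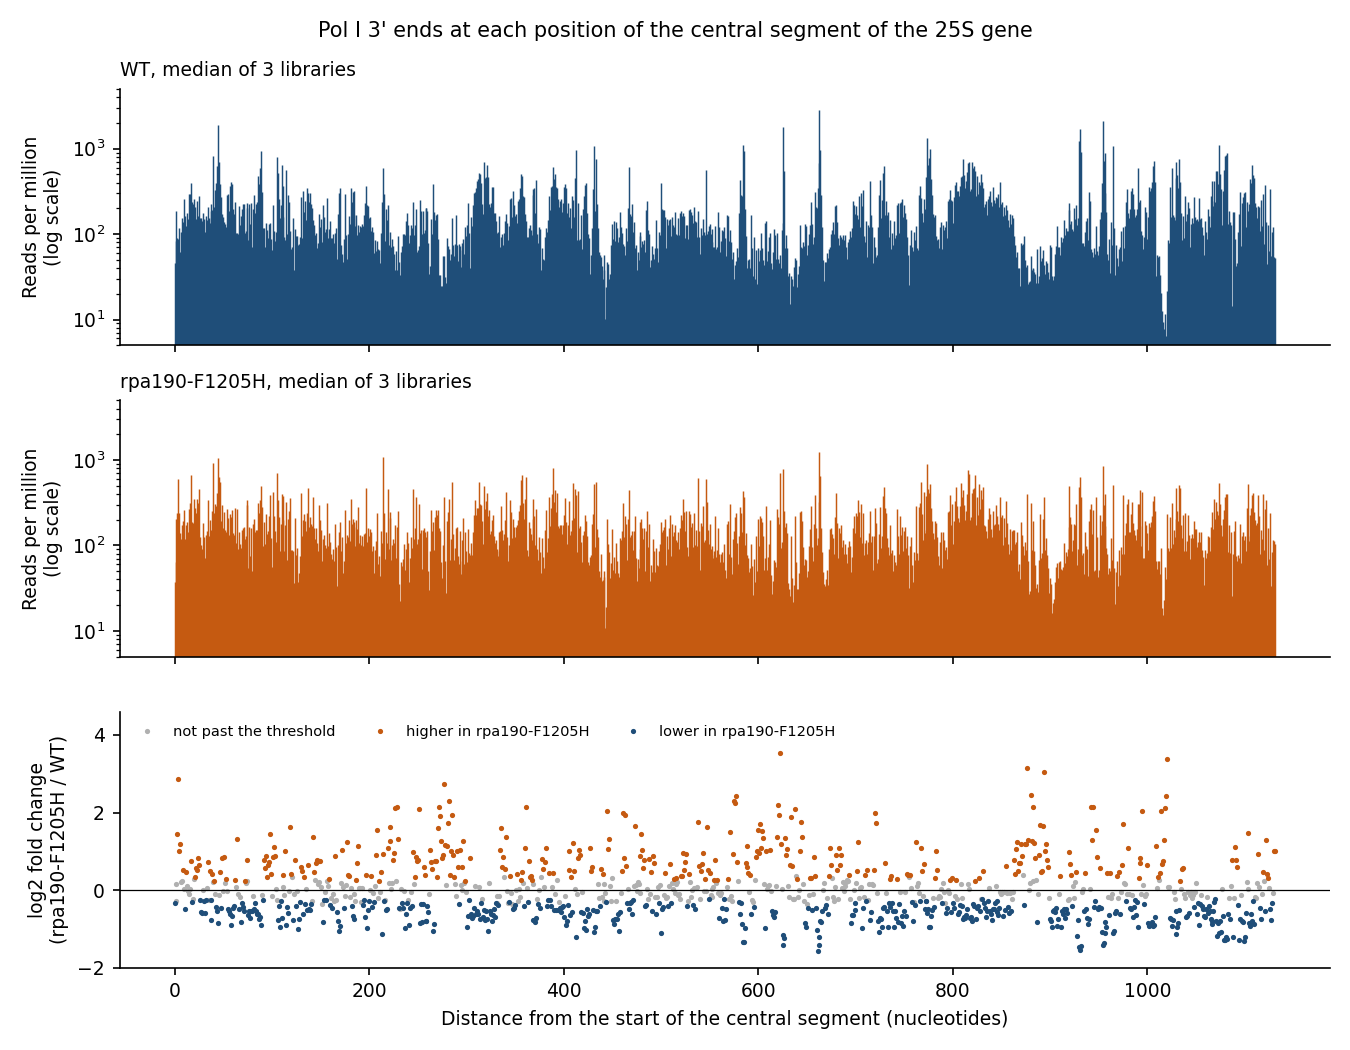
RPM at each of the 1132 positions, as the median of 3 WT libraries (top) and 3 *rpa190-F1205H* libraries (middle), on log axes, and the limma log2 fold change (bottom) against the distance from the start of the central segment in nucleotides. On the RPM scale the 5 highest WT positions are lower in the mutant, the rises reach 3.53, and no fall goes below -1.56.

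The largest rise was at position 5006, a C of the 25S rRNA (nucleotide 1755). Its levels were 56.8, 56.2, and 64.8 RPM in the WT libraries (always in the order of replicates 1 to 3), and 678, 701, and 705 RPM in the mutant libraries. By its strain median it was at rank 977 of 1132 in WT and at rank 11 in the mutant. The log2 fold change was 3.53 ± 0.09 (SE, limma adjusted p = 3.89e-08). It was part of a small cluster, since the 3 positions before it, 5003 to 5005, rose by 1.36, 2.19, and 1.93 on the log2 scale.

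Only 4 nucleotides downstream of that rise, position 5010 fell. This C was at rank 4 in WT, with 1779, 1734, and 2323 RPM, and had 604, 786, and 813 RPM in *rpa190-F1205H*. Its log2 fold change was -1.40 ± 0.15 (limma adjusted p = 5.42e-05). The G and A on either side of it, 5009 and 5011, had log2 fold changes of -1.14 and -1.23, and 5012 one of 1.36. The mean at 5010 was 1945 RPM and that at 5006 59.3 RPM in WT, whereas in *rpa190-F1205H* the means were 734 and 694 RPM, so that 5006 had nearly the level of 5010. The pair was singled out after its values were seen. Within 10 nucleotides upstream, a 2-fold rise lay near 21 of the 42 falls of at least 2-fold, or 50%. The same held for 49.7% of all positions, so at this window rises were about as frequent near falls as elsewhere. Closer spacing, such as the 4 nucleotides of this pair, was not examined, and some of the falls are neighbors of each other.

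Position 5404 had the second-largest rise. This U had 21.6, 21.7, and 19.4 RPM in WT and 232, 216, and 234 RPM in *rpa190-F1205H*, a log2 fold change of 3.38 ± 0.09. It sits at the downstream edge of a trough of the WT profile. The 6 positions before it, 5398 to 5403, had WT means of 6.96 to 21.0 RPM, and each of them rose. On its downstream side, the 4 positions from 5407 to 5410 fell by 0.72 to 0.93 on the log2 scale.

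The other 3 large rises lie further along the profile and near its start. Position 5260, a C, had 42.9, 44.4, and 42.1 RPM in WT and 400, 343, and 441 RPM in *rpa190-F1205H*. Position 5278, also a C, had 61.4, 43.9, and 35.5 RPM in WT and 369, 367, and 424 RPM in the mutant. At the C of position 4388 the WT libraries had 88.0, 98.1, and 66.1 RPM and the *rpa190-F1205H* libraries 606, 593, and 619 RPM. The strains were far from overlapping at each, with log2 fold changes of 3.16, 3.05, and 2.85 and limma adjusted p-values of 1.3e-06 or below. In their sequences, shown above, 4 of these 5 rises are a C and 1 is a U, each follows an A or a G, and each is followed by a C or a U. These 5 were picked as extremes. The same combination, A or G before an end in C or U that is followed by C or U, is found at 11.2% of the segment's positions. It was at 31 of the 120 rises of at least 2-fold (25.8%), so most of them do not have it, and at 2 of the 42 falls.

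The highest position of both strains was 5046, a U at nucleotide 1795 of the 25S rRNA. It had 2849, 2850, and 3789 RPM in WT and 1012, 1243, and 1285 RPM in *rpa190-F1205H*, where it kept the first rank at a much lower level. Its log2 fold change was -1.42 ± 0.15 (limma adjusted p = 3.52e-05). The G just before it, position 5045, had the largest fall of all, with 345, 311, and 418 RPM in WT and 109, 121, and 130 RPM in the mutant, a log2 fold change of -1.56 ± 0.13 (limma adjusted p = 9.11e-06).

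The remaining 3 named falls are neighbors. Positions 5314, 5315, and 5316 form the run UCU, and the C in its center had 1713, 1619, and 2252 RPM in WT and 522, 625, and 756 RPM in *rpa190-F1205H*. Their log2 fold changes were -1.47, -1.55, and -1.44. The C of position 5338, at rank 2 in WT, had 2090, 2007, and 2614 RPM in WT and 711, 859, and 959 RPM in the mutant, with a log2 fold change of -1.41 ± 0.14 (limma adjusted p = 3.52e-05). WT replicate 3 was the highest library and *rpa190-F1205H* replicate 1 the lowest at 5010, 5045, 5046, 5314 to 5316, and 5338. With any 1 library left out, the log2 fold changes at these positions stayed between -1.69 and -1.27.

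Not every high position lost reads to this extent. The G of position 4429, at rank 3 in both strains, had 1906, 1793, and 1992 RPM in WT and 968, 1069, and 1118 RPM in *rpa190-F1205H*, a log2 fold change of -0.85 ± 0.10. The C of position 5158 had 1274, 1333, and 1375 RPM against 899, 886, and 869 RPM, or -0.58 ± 0.08. At the U of position 4424 the strains differed by little, with 815, 732, and 820 RPM in WT and 856, 921, and 982 RPM in the mutant, and this difference did not pass the threshold (log2 fold change 0.22 ± 0.10, limma adjusted p = 0.066). Position 4598, a U, was the only one of these high positions that was called higher. It had 490, 667, and 587 RPM in WT and 1080, 1111, and 1099 RPM in *rpa190-F1205H*, and moved from rank 51 to rank 2 (log2 fold change 0.93 ± 0.12, limma adjusted p = 0.00015). With equal spacer totals both of these positions were lower in the mutant, by log2 fold changes of -1.34 at 4424 and -0.64 at 4598, while the 5 large rises stayed higher.

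**Figure D3:**
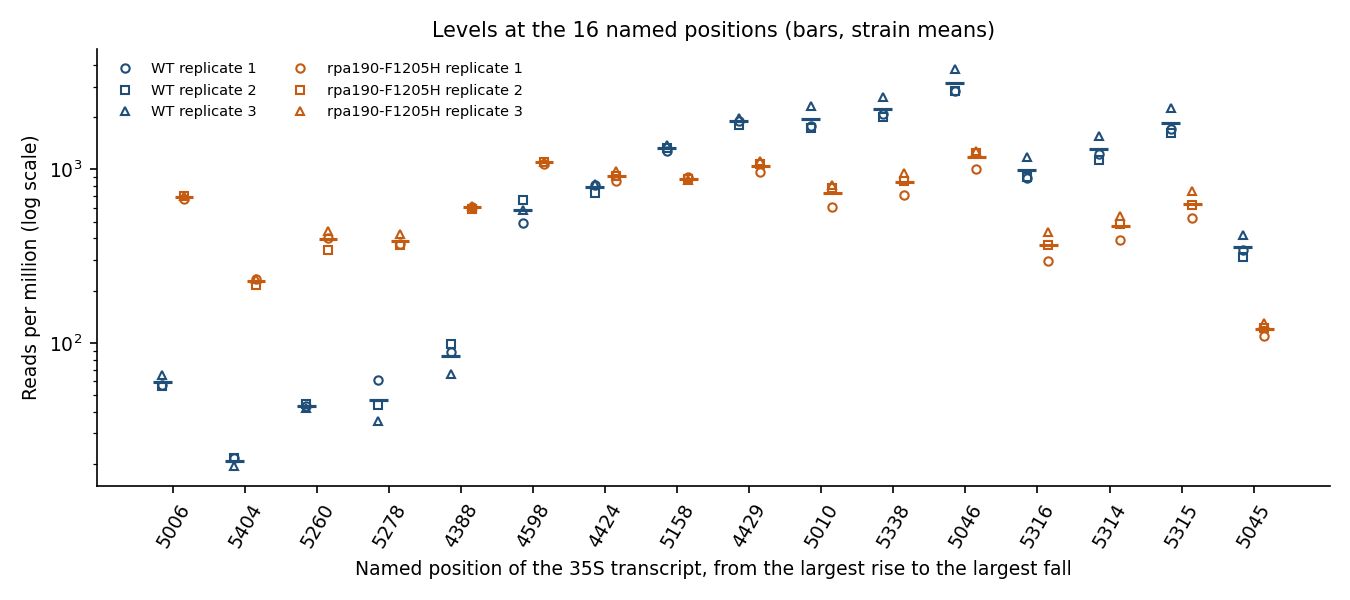
RPM in each library, on a log axis, at the 16 named positions, ordered from the largest rise to the largest fall. Points are libraries and short bars are strain means (n = 3). The strains are separate at every position shown, with the smallest distance at 4424.

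Along the central segment, 23 bins of up to 50 positions showed broad changes as well as peaks. In limma on the bin means, fitted with the 141 bins of the whole gene, 6 bins were higher in *rpa190-F1205H* and 13 were lower. The whole gene had 37.6% of its bins in each direction. The bin means ran from 83.6 to 373 RPM in WT and from 122 to 304 RPM in the mutant, so that the profile of the mutant was flatter on this scale also. From position 5284 on, all 5 bins were lower, and in the first 4 bins, 4384 to 4583, 1 passed the threshold. With equal spacer totals 0 bins were higher and 23 lower (10.6% and 85.1% in the whole gene), and with the total of the central segment set equal 9 were higher and 7 lower (52.5% and 22.7%).

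**Figure D4:**
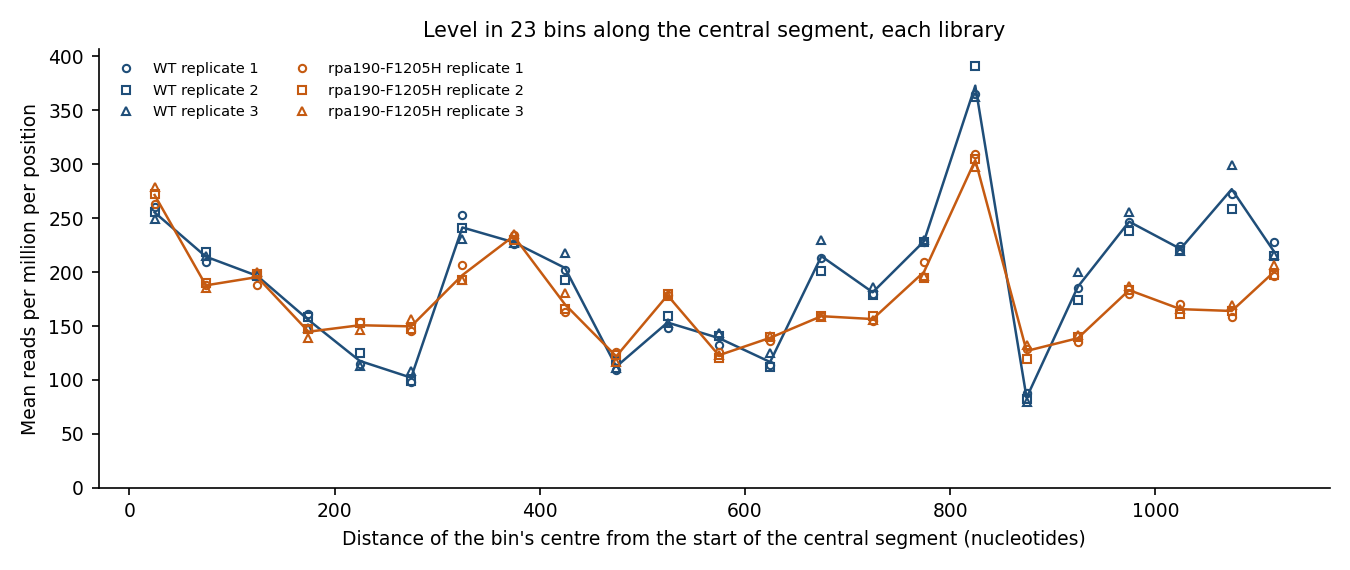
Mean RPM per position in 23 bins along the central segment, plotted at the distance of each bin's center from the start in nucleotides, for each library (points) and as strain means (lines). The mutant line is above the WT line at the WT minima of 102 and 83.6 RPM and below it in the last 5 bins.

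The 4 bins with the most extreme ratios are shown in sequence to place their changed positions. In the bins that rose, capitals mark the positions called higher, and in the bins that fell, the positions called lower.
4634 to 4683 (chrXII:462887-462936, rose): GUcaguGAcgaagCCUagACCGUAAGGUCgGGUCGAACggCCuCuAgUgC
5234 to 5283 (chrXII:462287-462336, rose): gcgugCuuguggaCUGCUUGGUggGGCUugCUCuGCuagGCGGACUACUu
5034 to 5083 (chrXII:462487-462536, fell): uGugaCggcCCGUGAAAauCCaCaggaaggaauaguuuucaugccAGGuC
5434 to 5483 (chrXII:462087-462136, fell): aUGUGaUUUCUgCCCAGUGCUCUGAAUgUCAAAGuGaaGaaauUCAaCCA

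The bin at 5234 to 5283, which has the lowest WT mean of the 23, had 88.1, 82.7, and 79.9 RPM per position in WT and 129, 119, and 133 RPM in *rpa190-F1205H*. Its log2 fold change was 0.60 ± 0.06 (limma adjusted p = 2.37e-06), and 29 of its 50 positions were called higher and 7 lower. The bin at 4634 to 4683 had 98.5, 99.5, and 108 RPM in WT and 145, 148, and 156 RPM in the mutant, a log2 fold change of 0.55 ± 0.05 (limma adjusted p = 2.98e-06). It holds 32 higher and 11 lower positions, and the longest run of higher positions in the central segment, 11 in a row from 4652 to 4662. With equal spacer totals both bins were lower in the mutant, by log2 fold changes of -0.95 and -1.0.

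The deepest fall of a bin was at 5434 to 5483, with 273, 258, and 300 RPM in WT and 158, 164, and 170 RPM in *rpa190-F1205H*. The log2 fold change was -0.75 ± 0.06 (limma adjusted p = 5.3e-07). By the median of its positions the fall was smaller but still passed the threshold, at -0.43 (limma adjusted p = 0.00036). Positions called lower were spread over much of the bin. Of its 50 positions, 38 were lower and 4 higher, with a run of 15 lower positions from 5446 to 5460, the longest of either direction. The bin at 5034 to 5083 differed in kind. It had 213, 201, and 230 RPM in WT and 159, 159, and 159 RPM in *rpa190-F1205H* (log2 fold change -0.43 ± 0.05, limma adjusted p = 2.31e-05), but 13 of its positions were higher and 17 lower. By the median of its positions it had a log2 fold change of 0.085 that did not pass the threshold (limma adjusted p = 0.304), so its fall rests on a small part of the bin. The 8 neighboring positions from 5043 to 5050 were all called lower and together lost 3396 RPM, of which 5045 and 5046 lost 2220 RPM, while the other 42 positions gained 617 RPM in all.

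The order of positions by level differed more between the strains than within them. Spearman's rho across the 1132 positions was 0.982 to 0.985 between WT libraries, 0.983 to 0.990 between *rpa190-F1205H* libraries, and 0.721 to 0.761 between strains. Positions share their libraries and neighbors, so these are descriptions. A shift of the mutant profile by 1 nucleotide in either direction lowered the rho of the strain medians from 0.746 to 0.483 or 0.431. Of the 28 highest positions (2.5%), replicates of a strain shared 23 to 26, and a WT and a mutant library shared 8 to 13.

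Of the central segment's reads, those ending in A made up 30.0 ± 0.30% in WT and 30.5 ± 0.42% in *rpa190-F1205H*, and those ending in G 25.2 ± 0.82% and 24.7 ± 0.22%, with overlap in both. Ends in C went from 20.7 ± 0.64% to 22.0 ± 0.27% and ends in U from 24.1 ± 0.10% to 22.8 ± 0.47%, without overlap (exact p = 0.1 each, 0.2 after adjustment over the 4 bases). Without the highest 1% of positions the difference was 3.01 percentage points in place of 1.23 for C, -1.34 in place of -1.26 for U, -1.50 in place of -0.47 for G, where the strains then did not overlap (exact p = 0.1), and -0.17 in place of 0.50 for A. With 1 library left out the difference for G ran from -0.90, without WT replicate 3, to -0.083, without WT replicate 2.

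The last 10 incorporated nucleotides lie in or near the RNA:DNA hybrid inside the polymerase. Weighted by reads, A and G made up 56.9, 57.1, and 56.6% of them in WT and 58.8, 58.8, and 58.9% in *rpa190-F1205H*, against 55.9% over the positions without weights. The difference of 2.01 percentage points was larger than the spread between libraries (exact p = 0.1, 0.2 after adjustment over 2 contents). G and C made up 52.9 ± 0.28% and 53.2 ± 0.29%, which overlapped (exact p = 0.3). In the central segment, the 109 positions with at least 8 A or G among the last 10 held 9.22 ± 0.27% of the reads in WT and 12.7 ± 0.16% in the mutant. Of them 57 were called higher and 26 lower. Of all positions of the central segment 30.3% were higher and 40.8% lower, and of the whole gene 40.6% and 33.9%. The 22 positions with at least 8 C or U held 1.16 ± 0.03% and 1.17 ± 0.04%, with 6 higher and 9 lower. The 57 with at least 8 G or C held 6.71 ± 0.32% and 5.95 ± 0.32%, with 16 higher and 16 lower. The 56 with at least 8 A or U held 2.35 ± 0.12% and 2.50 ± 0.13%, with 18 higher and 16 lower.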

How the data were processed

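NET-Seq libraries, 3 of WT and 3 of *rpa190-F1205H*, were analysed from 1 table. The authors removed duplicates by molecular identifier with fqtrim, trimmed with cutadapt, aligned to R64 with STAR 2.7.1a, and reduced alignments to 3′-end coverage with SAMtools and BEDTools. The sources used here do not give how copies of the rDNA repeat shared the reads. The deposited values are RPM over positions 1 to 6739. Whole reads were recovered, to within 0.02 and for 99.98% of values, by taking the lowest nonzero value of a library as 1 read. The authors' own columns of strain means, medians, intervals, ratios, and p-values were not used.

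limma 3.58.1 (R 4.3.3) was fitted to log2(RPM + 1) of positions and of 50-position bin means, with a term for strain, and called changes at an adjusted p of 0.05 over the whole gene. Strain summaries used two-sided exact permutation tests in scipy 1.17.1. Steps were tested on simulated data. Named positions were the 5 largest rises and falls among limma calls with a mean of at least 50 RPM and no overlap, and the 5 highest medians of each strain; named bins were the 2 largest and 2 smallest ratios. Members, lists, and alternatives were chosen with earlier results of these data known. Alternatives included edgeR 4.0.16 and DESeq2 1.42.0 on recovered reads.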

Additional observations from a re-analysis of the deposited data

How the results depend on the processing

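The values are shares of a fixed total, so statements of higher and lower in the central segment rest on the RPM scale, and shares and ratios within a library do not. With equal spacer totals, 32 positions were higher and 1057 lower (343 and 462 as reported), 0 bins were higher and 23 lower (6 and 13 as reported), and the log2 fold changes turned to -1.34 at 4424, -0.64 at 4598, -1.0 in the bin from 4634, and -0.95 in the bin from 5234. With the central segment's total set equal, 7 bins were lower. Bins of 20 positions gave 16 higher and 24 lower of 57, against 150 and 121 of 346 in the whole gene. Bin medians gave 8 lower of 23, against 41 of 141 in the whole gene, with a log2 fold change of 0.085 in the bin from 5034. With equal spacer totals the difference in mean level was -266 RPM (-17.6 as reported). The medians over positions turned the mean level to a difference of 8.95 RPM and the ratio to the 5′ segment to 0.10 on the log2 scale. Without the highest 1% of positions, the share of ends in A turned to -0.17 percentage points. Some alternatives moved the count of positions by less. The methods' t-test called 289 higher and 365 lower after Benjamini-Hochberg adjustment (328 and 415 at the unadjusted threshold), edgeR 336 and 533, and DESeq2 325 and 509. Of the 6843 positions of the whole gene, the t-test called 2316 higher and 1747 lower after adjustment (2551 and 2049 unadjusted). There edgeR called 2698 and 2679, and DESeq2 2602 and 2538. Of 187 comparisons with alternatives other than leaving out a library, 169 kept direction and side of the threshold or a count within 1.5 times. The cause of the others was not tested. The alternatives for the named bins and for the bases beside the 3′ end, and the mean level with equal medians (a difference of -40.6 RPM), were chosen after seeing the data.

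With each library left out in turn, all 246 values kept direction and side of the threshold or a count within 1.5 times. There were 314 to 334 higher and 412 to 465 lower positions, 5 to 6 higher and 12 to 14 lower bins, and the difference in mean level was -18.4 to -16.5 RPM. The whole gene had 2618 to 2732 higher and 2059 to 2318 lower of 6843 positions. Of its 141 bins, 49 to 55 were higher and 48 to 54 lower. The exact tests cannot pass 0.05 in this design, so they say nothing of stability beyond direction. The labels do not say that replicate numbers mark pairs, and they were not taken as pairs. In their deviations from the strain means, same-numbered libraries had correlations of 0.13, 0.03, and 0.20. Libraries of unlike number had correlations of -0.16 to 0.03, so these values do not settle whether the numbers mark pairs. With the replicate number as a block, 351 positions were higher and 478 lower, and 6 bins were higher and 14 lower. The whole gene then had 2825 higher and 2411 lower of 6843 positions, and 56 higher and 58 lower of 141 bins. Depth limited little, since the lowest count at a position was 13 reads.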

Other observations

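The nucleotides around the 3′ end, from 4 before it to 3 after it, differed between the strains by up to 5.64 percentage points, and the 3′ end itself by up to 1.26. This was noticed after the values were seen, in a look at 21 columns around the mapped end, 4 bases in each, in 7 regions of the gene, and is given as a description. The base after the 3′ end, the next to be added, was A for 33.3, 32.8, and 33.5% of the central segment's reads in WT and for 27.5, 28.0, and 28.1% in *rpa190-F1205H*, where A follows 25.8% of the positions. It was U for 22.0 ± 0.25% and 26.1 ± 0.21%, C for 16.0 ± 0.14% and 19.0 ± 0.02%, and G for 28.8 ± 0.12% and 27.0 ± 0.40%. The base just before the 3′ end was G for 38.7 ± 0.32% in WT and 43.3 ± 0.49% in the mutant, where G precedes 29.9% of the positions. The adjoining bases were not alone. The largest difference of all was in A at the base after the next, with 34.2 ± 0.55% in WT and 28.6 ± 0.22% in *rpa190-F1205H*, where G went from 26.1 ± 0.39% to 30.1 ± 0.40%. A at 4 nucleotides before the end went from 22.9 ± 0.09% to 27.5 ± 0.23%, and C at 3 before it from 25.1 ± 0.57% to 21.1 ± 0.28%. The share of G at 2 before the end was 33.0 ± 0.31% in WT and 4.02 percentage points higher in the mutant. Of the 84 shares in the central segment, 73 did not overlap between the strains. The exact p of each of these 73 was 0.1, the smallest that the design allows, and 0.115 after Benjamini-Hochberg adjustment over the 84. At 5 or more nucleotides before the end the differences were at most 1.52 percentage points, and at 5 or more after it at most 2.48. Without the highest 1% of positions the difference for A after the end went from -5.38 to -3.86 percentage points, that for U from 4.13 to 2.85, and that for G before the end from 4.52 to 4.15.

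The same bases stood out among the positions with large changes, which are part of the same comparison and add no support. Among the 120 rises of at least 2-fold, the next base was C or U at 79, and among the 42 falls of at least 2-fold at 9, while 44.3% of all positions in the central segment have C or U next. All pairs of end base and next base were looked at, and the extremes in share called higher come first. A 3′ end in C followed by U occurs at 68 positions, of which 40 were higher and 17 lower. A 3′ end in C followed by A occurs at 53, of which 6 were higher and 35 lower. A 3′ end in U followed by A occurs at 60, of which 5 were higher and 37 lower. Of all positions of the central segment 30.3% were higher and 40.8% lower, and of the whole gene 40.6% and 33.9%. The other pairs lay between. Among them, C followed by C occurs at 50 positions, with 28 higher and 11 lower, and G followed by U at 79, with 24 higher and 37 lower. In the 5′ segment of the 25S gene the share of reads followed by A was 35.1 ± 0.58% in WT and 30.0 ± 0.02% in *rpa190-F1205H*. In the 3′ segment it was 33.1 ± 0.12% and 29.2 ± 0.30%, and in the 18S gene 33.3 ± 0.49% and 28.1 ± 0.16%. The spacers had 23.2 ± 0.55% and 22.5 ± 0.50%, where the strains overlapped. Some of the other differences were seen in the spacers as well. There A at the base after the next went from 36.0 ± 0.20% to 28.3 ± 0.25%, and G just before the 3′ end from 39.2 ± 0.95% to 42.5 ± 0.73%. In the 18S gene these went from 34.4 ± 0.35% to 29.1 ± 0.17% and from 32.5 ± 0.44% to 38.0 ± 0.81%. G at the base after the next did not rise in the spacers, with 25.7 ± 0.44% and 25.2 ± 0.35%.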
